A study of Mus musculus with 6 samples.

Results

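The 10 genes described here serve cholesterol uptake, steroid metabolism or hormone signalling in Leydig cells. These endocrine cells lie between the seminiferous tubules and make the androgen of the testis. The genes were Star, Cyp11a1, Hsd3b1, Hsd3b6, Cyp17a1, Hsd17b3, Lhcgr, Insl3, Srd5a1 and Scarb1, taken by gene symbol from a table of 26743 genes. Total RNA of whole testes was sequenced from 3 wild-type (WT) mice and 3 Trf2-/- mice, all aged 21 days, each library being an independent biological replicate. Trf2, whose gene symbol is Tbpl1, is a germ cell-enriched relative of the TATA-binding protein, and the Trf2-/- mice were homozygous for an inactivated allele. The labels name no other allele or treatment, and the samples held every cell type of the testis, so that a larger number of Leydig cells and more RNA per Leydig cell could not be told apart. The comparison asked whether Leydig cell steroidogenic genes differed when Trf2 was lost, and by how much they varied between mice of the same genotype.

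In steroidogenic cells, cholesterol is taken up from lipoproteins, delivered to mitochondria by STAR and cleaved to pregnenolone by CYP11A1. The 3-beta-hydroxysteroid dehydrogenases, CYP17A1 and HSD17B3 then convert pregnenolone to testosterone, while SRD5A1 reduces testosterone further, above all in the immature Leydig cells of prepubertal males. Luteinising hormone (LH) acts through LHCGR and cyclic AMP, which raises Star and Cyp17a1 transcription. Insl3 encodes a peptide hormone that marks the differentiated state of the cells.

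The libraries held between 15187062 and 29859347 counted reads, the Trf2-/- mouse 3 library being the shallowest and the WT mouse 3 library the shallowest of its genotype. Levels are given as CPM, read counts relative to library size after scaling by the trimmed mean of M-values (TMM), and 3 counts correspond to 0.105 to 0.190 CPM. Tbpl1 stood at 308, 283 and 294 CPM in WT mice 1 to 3, and at 62.9, 64.3 and 55.8 CPM in Trf2-/- mice 1 to 3, so every library matched its label. Of 16924 genes with enough reads to be tested, 5312 (31.4%) had an adjusted p under 0.05, of which 3423 were lower in Trf2-/- testis. The median log2 fold change (Trf2-/- over WT) of all tested genes was 0.04. All 10 steroidogenesis genes passed the filter on low counts, and each of them had at least 70 reads in every mouse. Of 4 marker genes of the adrenal cortex, a steroidogenic tissue that shares most of these enzymes, Cyp11b2 and Mc2r each had 1 read in the 6 libraries together, Cyp21a1 had 5 to 17 reads per mouse and Mrap had 4.18 to 11.8 CPM. Their summed level was 4.56 to 12.3 CPM in the WT mice against 4.804 to 12.1 CPM in the Trf2-/- mice, nearly all of it Mrap, and neither of the 2 genes that could be tested, Cyp21a1 and Mrap, was called.

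Of the 10 genes, Hsd3b1 and Hsd17b3 were higher in Trf2-/- testis and none was lower, by edgeR's quasi-likelihood test with an adjusted p under 0.05. These 2 calls stand against a background of 11.2% of all tested genes called higher and 20.2% called lower, so that 2 of 10 lay above the background for higher calls and below that for calls in either direction (31.4%). The same 2 genes had an unadjusted p under 0.05. Log2 fold changes lay between -0.31 and 0.61 (median 0.17), and 8 of the 10 were above 0, beside 54.9% of all tested genes. The values of the 3 WT and the 3 Trf2-/- mice did not overlap for Hsd3b1, Hsd17b3 and Insl3, while 49.2% of all tested genes showed no overlap. Summed over the 10 genes, the level was between 330 and 523 CPM in the WT mice, as against 345 to 503 CPM in the Trf2-/- mice, so the genotypes overlapped almost fully.

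**Figure D1:**
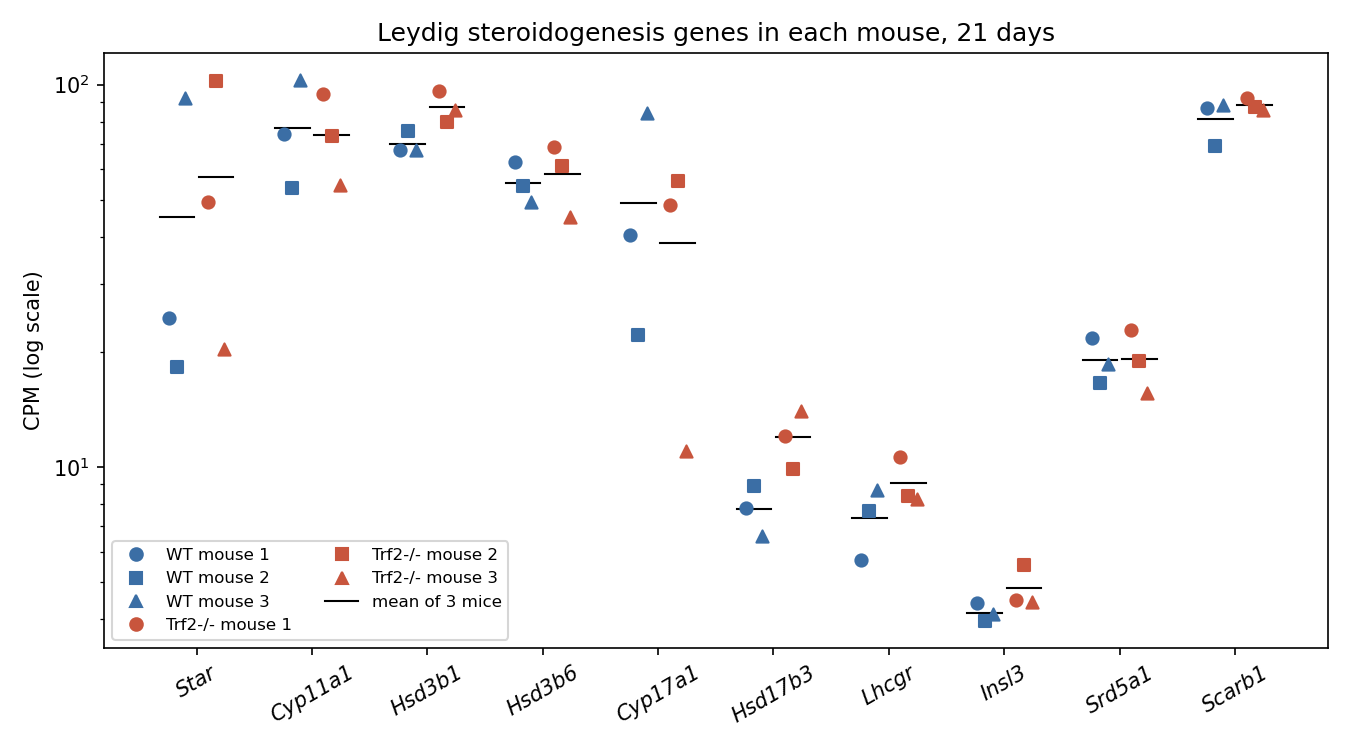
CPM on a log scale of the 10 genes in each of the 3 WT (blue) and 3 Trf2-/- (red) mice, with the mean of each genotype as a black line. Star and Cyp17a1 spread about 4- to 5-fold between mice of either genotype, while the 3 Trf2-/- values of Hsd3b1 and Hsd17b3 all lie above the 3 WT values.

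Compared between genes per kilobase of the deposited gene length, the WT levels fell in the order Cyp11a1 (43.4 ± 13.9 CPM per kb, SD, n = 3), Hsd3b1 (37.8 ± 2.53), Hsd3b6 (30.8 ± 3.79), Cyp17a1 (27.0 ± 17.7), Scarb1 (24.0 ± 3.20), Star (13.3 ± 12.1), Insl3 (6.67 ± 0.360), Srd5a1 (6.29 ± 0.868), Hsd17b3 (6.04 ± 0.915) and Lhcgr (2.88 ± 0.591). Neighbours in this order overlapped between mice, except that Hsd3b1 lay above Hsd3b6, and Hsd17b3 above Lhcgr, without overlap. The order depends on the length used. Annotated exonic bases numbered 6291 for Scarb1 and 2166 for Cyp17a1, beside deposited lengths of 3397 and 1815, so these 2 would stand lower by exonic bases. Of the 623 bases of Insl3, 404 are also exonic in Jak3, so its level per kilobase may be understated. In the Trf2-/- mice Hsd3b1 stood first (47.1 ± 4.38 CPM per kb) and Cyp11a1 second (41.7 ± 11.2), and these also overlapped. The receptor for LH was thus the lowest of the 10 transcripts per kilobase in both genotypes, and Cyp11a1, Hsd3b1 and Hsd3b6 were the 3 highest.

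Scarb1, the high-density lipoprotein receptor that brings in cholesterol esters, is encoded on chr5:125757457-125821464 (minus strand, NCBIM37). It stood at 86.8, 68.9 and 88.7 CPM in WT mice 1 to 3, and at 92.2, 87.3 and 86.0 CPM in Trf2-/- mice 1 to 3. Only WT mouse 2 lay apart from the other values. The log2 fold change was 0.12 (SE 0.09, 95% interval -0.08 to 0.33, edgeR adjusted p = 0.332), which is within the spread between mice.

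Star, on chr8:26918946-26925782 (plus strand), controls the step at which cholesterol enters the inner mitochondrial membrane. It was read 703, 476 and 1920 times in the WT mice and 1240, 2387 and 322 times in the Trf2-/- mice, which gave 24.5, 18.2 and 92.1 CPM against 49.2, 102 and 20.4 CPM. A high and a low mouse were thus found in each genotype, WT mouse 3 and Trf2-/- mouse 2 being high. The highest WT mouse stood 5.05 times above the lowest, and the highest Trf2-/- mouse 5.03 times. The log2 fold change of 0.39 (SE 0.65, 95% interval -1.09 to 1.86, edgeR adjusted p = 0.678) was smaller than its error, and without Trf2-/- mouse 2 it was -0.33.

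Cyp17a1, on chr19:46741655-46747464 (minus strand), encodes the enzyme whose hydroxylase and lyase activities commit pregnenolone and progesterone to androgens. Its counts were 1161, 576 and 1760 in the WT mice and 1222, 1308 and 174 in the Trf2-/- mice, or 40.5, 22.1 and 84.4 CPM against 48.5, 56.1 and 11.0 CPM. The mice fell in the same order as for Star in both genotypes, WT mouse 3 being followed by 1 and 2, and Trf2-/- mouse 2 by 1 and 3. The range was 3.83-fold in WT and 5.10-fold in Trf2-/- testis. The log2 fold change was -0.31 (SE 0.56, 95% interval -1.57 to 0.96, edgeR adjusted p = 0.702), and it was 0.32 without WT mouse 3 and 0.12 without Trf2-/- mouse 3. For Star and Cyp17a1, with 3 mice per group, the data were compatible with genotype differences in either direction across these wide intervals.

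The spread of these genes was unusual within the libraries. The SD of log2 CPM between the WT mice was 1.24 for Star and 0.968 for Cyp17a1, beside a median of 0.0882 over all tested genes, and placed them at percentiles 99.9 and 99.7. Between the Trf2-/- mice the SD was 1.16 and 1.29 beside a median of 0.124, at percentiles 99.5 and 99.6. Cyp11a1 came next, at percentiles 96.2 and 88.4, whereas Hsd3b1 lay close to the median gene, at percentiles 53.1 and 52.8. The other members differed by at most 1.53-fold between mice of a genotype. The transcripts of the pathway were therefore unequally variable from mouse to mouse, with Star and Cyp17a1 varying most.

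**Figure D2:**
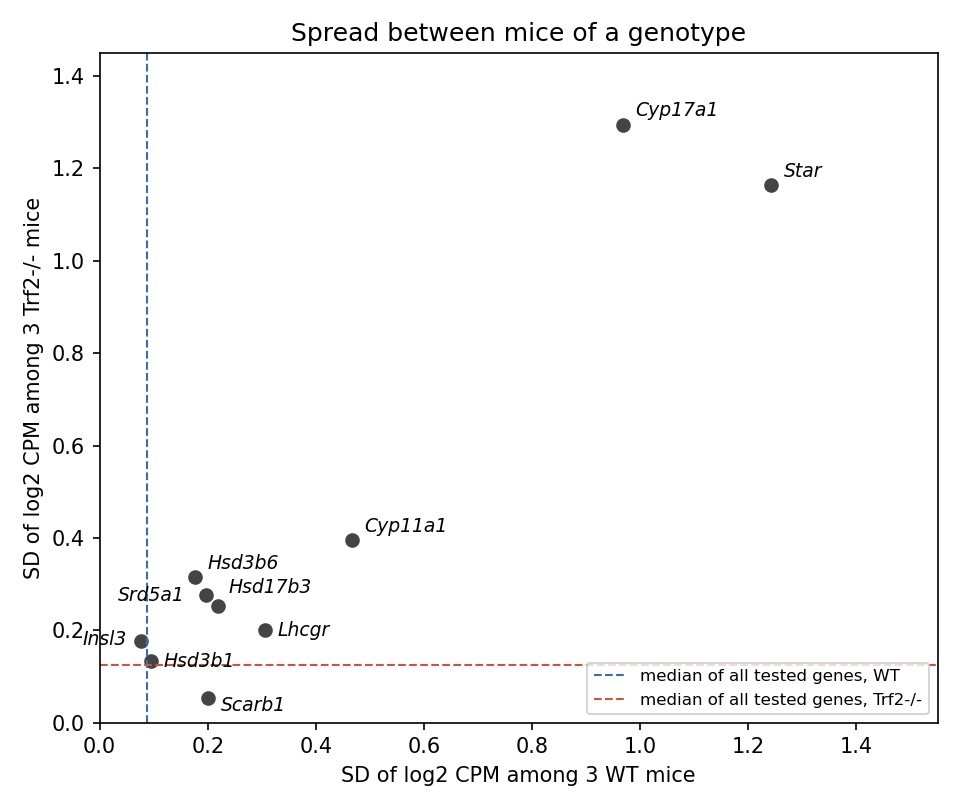
SD of log2 CPM among the 3 WT mice (horizontal) and among the 3 Trf2-/- mice (vertical) for each of the 10 genes, with the medians of all tested genes as dashed lines. Star and Cyp17a1 lie far from the other members on both axes, and Cyp11a1 lies between them and the rest.

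Of 11951 tested genes with a mean of at least 5 CPM, 7 had a highest mouse at least 3 times the lowest in both genotypes, which is 0.0586%. Star and Cyp17a1 were among them, together with Slc7a11, Car3, Crisp1, Spink8 and Cuzd1, and these were named after their values had been seen. Slc7a11, which encodes the cystine transporter, followed the same order of mice as Star and Cyp17a1, at 5.23, 3.95 and 15.8 CPM in WT mice 1 to 3, and 13.0, 14.9 and 3.54 CPM in Trf2-/- mice 1 to 3. The other 4 genes did not follow that order. Crisp1, Spink8 and Cuzd1 shared another order, WT mouse 2 being followed by 3 and 1, and Trf2-/- mouse 1 by 2 and 3. Car3 had the same WT order, but Trf2-/- mouse 2 was its highest. Crisp1, a secretory gene of the epididymis, had 0.0697, 7.47 and 5.90 CPM in WT mice 1 to 3, and 47.0, 5.10 and 0 CPM in Trf2-/- mice 1 to 3, being highest in Trf2-/- mouse 1 and close to absent in WT mouse 1 and Trf2-/- mouse 3. The order seen for Star and Cyp17a1 was shared by 418 (3.50%) of the 11951 genes. The libraries with the highest Star level in WT and the lowest in Trf2-/- testis were each the shallowest of their genotype, and the part of depth was not tested.

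The genes whose profile over the 6 mice was most like the mean of Star and Cyp17a1, a comparison added after the data had been seen, were Slc7a11, Slc38a1, Mrap, Aqp2, Elovl6, Tnfaip8, Fdx1, S1pr3, Hspb8 and Alas1. Their root mean square difference in centred log2 CPM was 0.231 to 0.612, beside a median of 0.954 over 11942 genes. Fdx1, the ferredoxin that passes electrons to CYP11A1, stood at 43.7, 43.4 and 71.3 CPM in WT mice 1 to 3, and at 53.7, 66.5 and 34.3 CPM in Trf2-/- mice 1 to 3. Alas1, which catalyses the first step of haem synthesis, stood at 126, 127 and 236 CPM and at 136, 208 and 117 CPM in the same order. Mrap, an accessory protein of the melanocortin receptors that was also on the adrenal cortex list, stood at 5.16, 4.18 and 11.8 CPM and at 10.9, 11.4 and 4.49 CPM. In all 3 genes WT mouse 3 was the highest WT mouse and Trf2-/- mice 2 and 3 were the highest and the lowest of their genotype, at smaller ranges than Star. None of the 3 was called between the genotypes, with edgeR adjusted p of 0.958, 0.849 and 0.499.

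**Figure D3:**
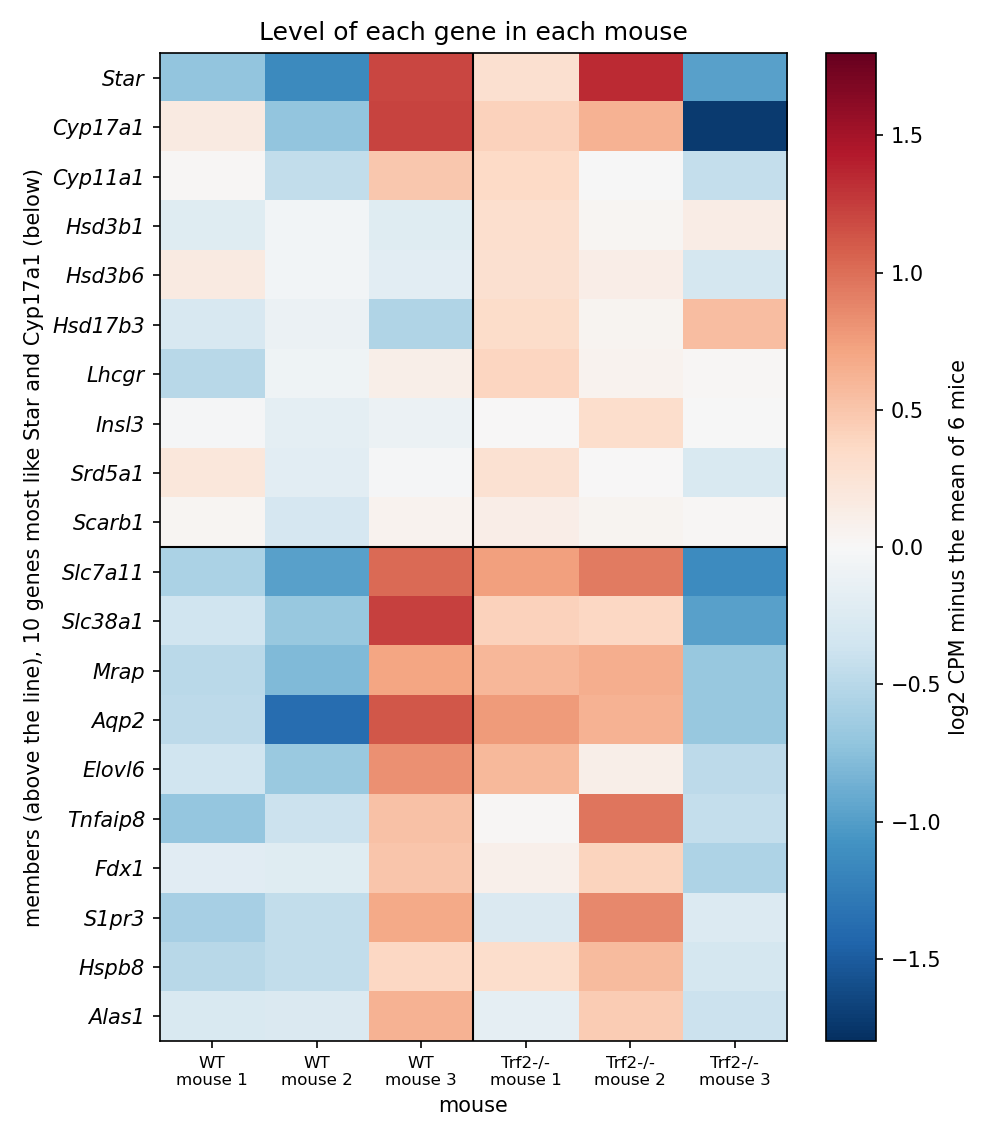
Log2 CPM minus the mean of the 6 mice (red, higher; blue, lower) for the 10 members, above the horizontal line, and for the 10 genes whose profile was most like that of Star and Cyp17a1, below it; columns are the 3 WT and the 3 Trf2-/- mice. WT mouse 3 and Trf2-/- mouse 2 are high and WT mouse 2 and Trf2-/- mouse 3 low for Star and Cyp17a1, while Hsd3b1, Insl3 and Scarb1 vary little.

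Nr4a1, an immediate early nuclear receptor that LH induces and that binds steroidogenic promoters, stood at 2.34, 3.41 and 6.72 CPM in WT mice 1 to 3, and at 3.14, 34.7 and 3.29 CPM in Trf2-/- mice 1 to 3. It was highest in the same mouse of each genotype as Star, although the other mice did not keep Star's order. Nr4a1 was picked out for its values, and edgeR's adjusted p for the genotype difference was 0.150. Fos and Jun, immediate early genes of the same list, were set beside it with their values known. Fos stood at 1.53, 2.26 and 2.06 CPM in WT mice 1 to 3, and Jun at 15.68, 16.05 and 15.54 CPM. Both were thus highest in WT mouse 2, where Star was lowest, and in Trf2-/- mouse 2, where Star was highest. Fos was called higher in Trf2-/- testis (edgeR adjusted p = 0.0485). The part of LH was not tested.

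Cyp11a1, on chr9:57862820-57874827 (plus strand), encodes the side-chain cleavage enzyme of the inner mitochondrial membrane. It stood at 74.4, 53.8 and 103 CPM in WT mice 1 to 3, and at 94.4, 73.2 and 54.6 CPM in Trf2-/- mice 1 to 3. The genotypes overlapped almost entirely, and Trf2-/- mouse 3 was again the lowest of its genotype. The log2 fold change was -0.05 (SE 0.24, 95% interval -0.59 to 0.50, edgeR adjusted p = 0.901), and it was 0.21 without WT mouse 3. Relative to Cyp11a1 in the same mouse, Star was at 0.329 to 0.896 in WT mice, as against 0.373 to 1.40 in Trf2-/- mice, a ratio of counts that does not depend on how libraries are scaled. The ratio of Star to Cyp17a1 was 0.606, 0.826 and 1.09 in the WT mice and 1.02, 1.83 and 1.85 in the Trf2-/- mice, overlapping through WT mouse 3 and Trf2-/- mouse 1.

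Hsd3b1 and Hsd3b6 are neighbouring genes on chromosome 3, at chr3:98656117-98663717 and chr3:98609427-98618366 (both minus strand), and encode the dehydrogenases that turn delta-5 into delta-4 steroids. Hsd3b6 is the form associated with adult Leydig cells of the mouse, while Hsd3b1 is also used by the fetal population. Their coding sequences, 1122 bases each, were identical at 1010 positions (90.0%), so the ability of a 50-base read to tell them apart sets what their counts mean. The first 50 coding bases are typical, as the median window differed at 5 positions, and are shown with the differing bases in capitals.
Hsd3b1: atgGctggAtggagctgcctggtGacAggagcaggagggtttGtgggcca
Hsd3b6: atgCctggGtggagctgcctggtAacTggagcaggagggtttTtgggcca
Of 1073 such windows, 38 were identical, for example coding bases 250 to 299, where a read could belong to either gene.
Hsd3b1 and Hsd3b6: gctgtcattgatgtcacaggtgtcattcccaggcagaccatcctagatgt
Over the annotated transcripts, 2.11% of the 50-base windows of Hsd3b1 and 16.0% of those of Hsd3b6 occurred in another gene, in Hsd3b6 mainly in Hsd3b2 and Hsd3b3. Hsd3b3 had at most 1 read in any mouse and Hsd3b2 had 1.88 to 2.86 CPM.

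Hsd3b1 stood at 67.3, 75.5 and 67.5 CPM in WT mice 1 to 3, and at 96.1, 80.0 and 86.0 CPM in Trf2-/- mice 1 to 3. All 3 Trf2-/- mice lay above all 3 WT mice. The mean rose from 70.1 ± 4.70 to 87.4 ± 8.13 CPM (SD, n = 3), a 1.25-fold difference (log2 fold change 0.32, SE 0.08, 95% interval 0.14 to 0.49, edgeR adjusted p = 0.0144). The call was lost without WT mouse 1 (adjusted p = 0.0642), without WT mouse 3 (0.0561) or without Trf2-/- mouse 1 (0.0543).

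Hsd3b6 stood at 62.7, 54.3 and 49.2 CPM in WT mice 1 to 3, and at 68.5, 61.2 and 44.9 CPM in Trf2-/- mice 1 to 3. Trf2-/- mouse 1 was the highest and Trf2-/- mouse 3 the lowest of the 6, so the genotypes overlapped, and the log2 fold change was 0.08 (SE 0.14, 95% interval -0.25 to 0.40, edgeR adjusted p = 0.712). The ratio of Hsd3b6 to Hsd3b1 counts was 0.932, 0.719 and 0.730 in the WT mice and 0.713, 0.765 and 0.522 in the Trf2-/- mice, which also overlapped. The difference between the responses of the 2 paralogues was not tested.

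Hsd17b3, on chr13:64159582-64190509 (minus strand), reduces androstenedione to testosterone, the last step of the pathway. It was read 224, 233 and 137 times in the WT mice and 303, 230 and 222 times in the Trf2-/- mice, giving 7.81, 8.92 and 6.57 CPM against 12.0, 9.86 and 14.0 CPM. The genotypes did not overlap, Trf2-/- mouse 2 coming closest to the WT values. The mean rose from 7.77 ± 1.18 to 12.0 ± 2.09 CPM (SD, n = 3), a 1.53-fold difference (log2 fold change 0.61, SE 0.16, 95% interval 0.25 to 0.97, edgeR adjusted p = 0.0182). The call was lost without WT mouse 1 (adjusted p = 0.0618) or without WT mouse 3 (0.0625). Trf2-/- mouse 3, the mouse with the lowest Star and Cyp17a1, had the highest Hsd17b3. Relative to Hsd3b1, Hsd17b3 stood at 0.116, 0.118 and 0.0974 in the WT mice and at 0.125, 0.123 and 0.163 in the Trf2-/- mice, the only one of 15 ratios examined that did not overlap between genotypes.

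The 250 bases upstream of the RefSeq start (GRCm38.p6) are shown for both genes called higher and for Hsd3b6, the neighbouring paralogue that was not called. Both strands were searched for AGATAA, read by GATA factors, and for AAGGTCA, the core read by the steroidogenic factor NR5A1, and matches to AGATAA are in capitals.
Hsd3b1, chr3:98859795-98860044, minus strand: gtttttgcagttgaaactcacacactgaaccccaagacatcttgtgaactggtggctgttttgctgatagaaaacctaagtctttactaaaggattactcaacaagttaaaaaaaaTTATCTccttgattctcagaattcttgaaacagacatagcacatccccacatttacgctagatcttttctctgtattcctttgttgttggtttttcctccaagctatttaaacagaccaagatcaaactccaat
Hsd3b6, chr3:98814444-98814693, minus strand: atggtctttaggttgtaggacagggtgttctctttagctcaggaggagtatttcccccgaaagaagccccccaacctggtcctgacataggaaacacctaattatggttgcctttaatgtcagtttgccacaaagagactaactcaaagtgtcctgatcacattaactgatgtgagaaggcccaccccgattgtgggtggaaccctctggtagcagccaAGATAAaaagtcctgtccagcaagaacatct
Hsd17b3, chr13:64089202-64089451, minus strand: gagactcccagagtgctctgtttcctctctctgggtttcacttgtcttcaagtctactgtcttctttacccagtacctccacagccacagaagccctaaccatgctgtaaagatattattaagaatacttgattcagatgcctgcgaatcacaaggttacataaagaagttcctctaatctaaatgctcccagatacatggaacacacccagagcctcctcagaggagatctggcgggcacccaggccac
A window of the table was found for 7 of the 10 genes. AGATAA occurred once in Hsd3b1 and once in Hsd3b6, beside 9.99% of 32851 windows of this length, and AAGGTCA in none of the 7, beside 4.08%. These matches describe letters only and do not separate the called from the uncalled genes.

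Lhcgr, on chr17:89140889-89191316 (minus strand), stood at 5.72, 7.66 and 8.68 CPM in WT mice 1 to 3, and at 10.6, 8.41 and 8.22 CPM in Trf2-/- mice 1 to 3. The upper WT mouse overlapped the lower Trf2-/- mice, and the log2 fold change of 0.32 (SE 0.17, 95% interval -0.07 to 0.71, edgeR adjusted p = 0.189) did not pass the test. It equalled that of Hsd3b1 in size with an error more than 2 times as large, at 130 to 267 reads per mouse.

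Insl3, on chr8:74213113-74214474 (plus strand), stood at 4.39, 3.95 and 4.13 CPM in WT mice 1 to 3, and at 4.48, 5.53 and 4.43 CPM in Trf2-/- mice 1 to 3. The genotypes did not overlap, but the gap between WT mouse 1 and the lower Trf2-/- mice was under 0.1 CPM, and the log2 fold change was 0.22 (SE 0.14, 95% interval -0.11 to 0.54, edgeR adjusted p = 0.279). Insl3 lies within the span of Jak3 on the same strand, and 404 of its 623 exonic bases (64.9%) are also exonic in Jak3. The authors' annotation and strand setting for counting are not given in the sources used here, so its count covers an uncertain part of the transcript. Jak3 was lower in Trf2-/- testis (mean 7.26 against 5.37 CPM, log2 fold change -0.43, edgeR adjusted p = 0.0354).

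Srd5a1, on chr13:69712327-69750320 (minus strand), stood at 21.8, 16.6 and 18.6 CPM in WT mice 1 to 3, and at 22.9, 18.9 and 15.6 CPM in Trf2-/- mice 1 to 3. The 2 genotypes covered the same range, with a log2 fold change of 0.02 (SE 0.15, 95% interval -0.31 to 0.35, edgeR adjusted p = 0.938). Of its exonic bases, 15.8% are shared with the predicted gene Gm17108 on the same strand. Its relative Srd5a2, a reductase of the epididymis and prostate, had 3, 6 and 0 reads in the WT mice and 14, 5 and 1 reads in the Trf2-/- mice, being highest in the mouse with the most Crisp1. Whether epididymal tissue contributed to Srd5a1 was not tested.

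**Figure D4:**
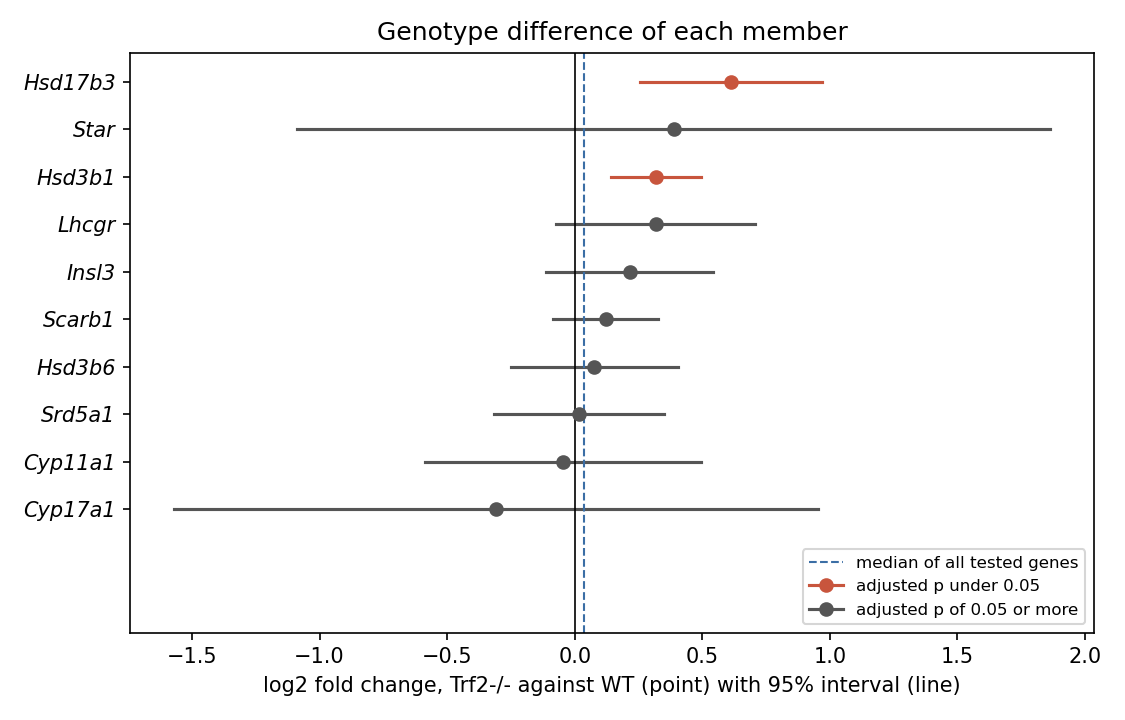
Log2 fold change of each of the 10 genes, Trf2-/- against WT (point), with its 95% interval (line); red marks an adjusted p under 0.05 and the dashed line the median of all tested genes, 0.04. The intervals of Star (-1.09 to 1.86) and Cyp17a1 (-1.57 to 0.96) are the widest, and those of Hsd3b1 and Hsd17b3 lie above 0.

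Among 19 tested genes for other steroid enzymes and their redox partners, 3 were higher and none lower in Trf2-/- testis by edgeR's test, with a median log2 fold change of 0.13. The counts of this and every later list stand beside 11.2% of all tested genes called higher and 20.2% called lower. Hsd3b7, which acts on bile acid precursors, rose from 8.36, 9.27 and 8.83 CPM in WT mice 1 to 3 to 11.8, 11.8 and 13.4 CPM in Trf2-/- mice 1 to 3 (log2 fold change 0.48, adjusted p = 0.00744). Cyp19a1, the aromatase that makes oestrogen, rose from 2.02, 1.69 and 1.49 CPM to 2.46, 2.74 and 4.55 CPM (0.87, adjusted p = 0.0338). Sult1e1, the oestrogen sulphotransferase, had 3, 6 and 4 reads in the WT mice and 23, 16 and 8 reads in the Trf2-/- mice (adjusted p = 0.00576), so that its size rests on WT values at the limit of detection. Hsd17b4, the most highly read gene of the list by its mean CPM over the 6 mice, was at 112 to 116 CPM in WT and 103 to 108 CPM in Trf2-/- testis and did not pass the test.

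Cholesterol supply was described by 29 tested genes for its synthesis, uptake, transport and storage, of which 3 were higher and 2 lower, with a median of 0.02. Neither count was above the share of all tested genes called in that direction. Fdft1, the squalene synthase that commits isoprenoids to sterols, fell from 95.1, 95.6 and 97.3 CPM to 53.5, 57.8 and 44.5 CPM (log2 fold change -0.88, edgeR adjusted p = 0.00039). Those that rose were the lysosomal cholesterol transporters Npc1 (0.28, adjusted p = 0.0119) and Npc2 (0.17, adjusted p = 0.0374) and the lipoprotein receptor Lrp1 (0.25, adjusted p = 0.0129), which was also the most highly read. Soat1, which stores cholesterol as esters, was among the 5 genes whose profile over the 6 mice was most like the mean of the 10 members, at 225, 203 and 275 CPM in WT and 294, 272 and 226 CPM in Trf2-/- testis. The other 4 were Npr3, Hdc, Reep3 and Adamts15, with a root mean square difference of 0.0334 to 0.0694 beside 0.0896 for Soat1 and a median of 0.292 over 11942 genes, and none of the 5 was called between the genotypes. The members' mean includes Star and Cyp17a1, which varied most. In centred log2 CPM it was 0.20 in WT mouse 3 and -0.30 in Trf2-/- mouse 3, beside 1.21 and -1.35 for Star and Cyp17a1. Cyp11a1 and Scarb1 kept the mean's order of mice, whereas Hsd3b1 and Hsd17b3 were highest in WT mouse 2, where the mean was lowest.

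Of 27 tested regulators of Leydig cell development and steroidogenesis, 8 were higher and 3 lower, with a median of 0.21. Nr5a1, the steroidogenic factor that activates most genes of the pathway, was named for its role, with its values known, and stood at 68.1, 70.4 and 75.4 CPM in WT mice 1 to 3, and 71.2, 80.2 and 83.1 CPM in Trf2-/- mice 1 to 3, which overlapped (log2 fold change 0.13, edgeR adjusted p = 0.180). Pdgfra, the receptor borne by Leydig progenitors, rose by 0.41 (adjusted p = 0.00292) and the GATA cofactor Zfpm2 by 0.43 (adjusted p = 0.00525). Pdgfa, the ligand of Pdgfra, fell from 22.8, 20.9 and 23.1 CPM to 12.8, 15.5 and 13.3 CPM (log2 fold change -0.68, adjusted p = 0.00113). Ligand and receptor were thus called in opposite directions, each without overlap between genotypes. Amhr2, the most highly read of the list, was at 295 to 326 CPM in WT and 298 to 330 CPM in Trf2-/- testis.

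LH receptor signalling held 19 tested entries, Pde4d being listed under 2 identifiers, of which 5 were higher and 3 lower with a median of 0.16. Akap1, which anchors protein kinase A at mitochondria, rose by 0.39 (edgeR adjusted p = 0.00602). Pde8a, a phosphodiesterase that lowers cyclic AMP in Leydig cells, fell from 294, 291 and 290 CPM to 208, 219 and 180 CPM (log2 fold change -0.53, adjusted p = 0.000927). Rxfp2, the receptor for INSL3, fell from 10.3, 9.61 and 10.6 CPM to 4.68, 6.30 and 3.79 CPM (log2 fold change -1.02, adjusted p = 0.00228), while its ligand Insl3 was not called. In whole testis, the cell types in which Pde8a and Rxfp2 fell could not be told. Prkar1a had the highest mean CPM over the 6 mice (251 in WT and 249 in Trf2-/- testis) and did not pass the test, while Pde8a was higher than Prkar1a in every WT mouse.

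Of 14 tested genes on a separate list of the Leydig lineage, 4 were higher and 1 lower, with a median of 0.17. Sult1e1, Pdgfra and Prlr were also on the lists above, so the calls of Sult1e1 and Pdgfra are counted again here. Gstm2 (0.19, edgeR adjusted p = 0.0245) and Tcf21 (0.41, adjusted p = 0.0320) rose beside Pdgfra and Sult1e1, and Gramd1b, which moves cholesterol out of the plasma membrane, fell by 0.58 (adjusted p = 0.000621). Aldh1a1, the most highly read, was at 435 to 498 CPM in WT and 468 to 547 CPM in Trf2-/- testis. Androgen-responsive Sertoli cell genes numbered 5, of which Drd4 (0.38, adjusted p = 0.0190), Spinlw1 (0.36, adjusted p = 0.0249) and Tsx (0.21, adjusted p = 0.0495) rose, with a median of 0.21. Without Trf2-/- mouse 1 none of these 3 was called. Of 163 tested genes annotated with a steroid-related biological process, 25 were higher and 14 lower, with a median of 0.09. The share called lower was below that of all tested genes, and the share called higher was above it.

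Some marker genes of other cell types also differed between the genotypes in the same libraries. All 13 Sertoli cell markers had a log2 fold change above 0, with 6 called higher, none lower and a median of 0.19, and their summed level was 2297 to 2428 CPM in WT and 2657 to 2848 CPM in Trf2-/- testis. The sets of 6 peritubular markers and of 7 endothelial markers had 1 gene called higher each, with medians of 0.19 and 0.15. Macrophage markers had 3 of 9 called higher with a median of 0.54, and their sum was 163 to 194 CPM in WT and 183 to 357 CPM in Trf2-/- testis, with Trf2-/- mouse 1 the highest. Spermatogonia markers had 1 of 6 called higher and a median of 0.23, spermatocyte markers 2 higher and 3 lower of 7, and round spermatid markers 6 of 7 lower with a median of -1.41. The medians of the Sertoli, peritubular and endothelial lists lay between 0.15 and 0.19, beside 0.17 for the 10 steroidogenesis genes, and that of the macrophage list was higher. The part of cell composition in the differences of Hsd3b1 and Hsd17b3 was not tested. Nor was its part in the falls of Fdft1, Pdgfa, Pde8a, Rxfp2 and Gramd1b, whose cells of origin could not be told in whole testis. When the libraries were instead scaled to the summed Sertoli markers, an alternative added after the data had been seen, the log2 fold change of Hsd3b1 was 0.11 (edgeR adjusted p = 0.334) and that of Hsd17b3 0.40 (adjusted p = 0.0566), and none of the 10 genes was called in either direction.

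**Figure D5:**
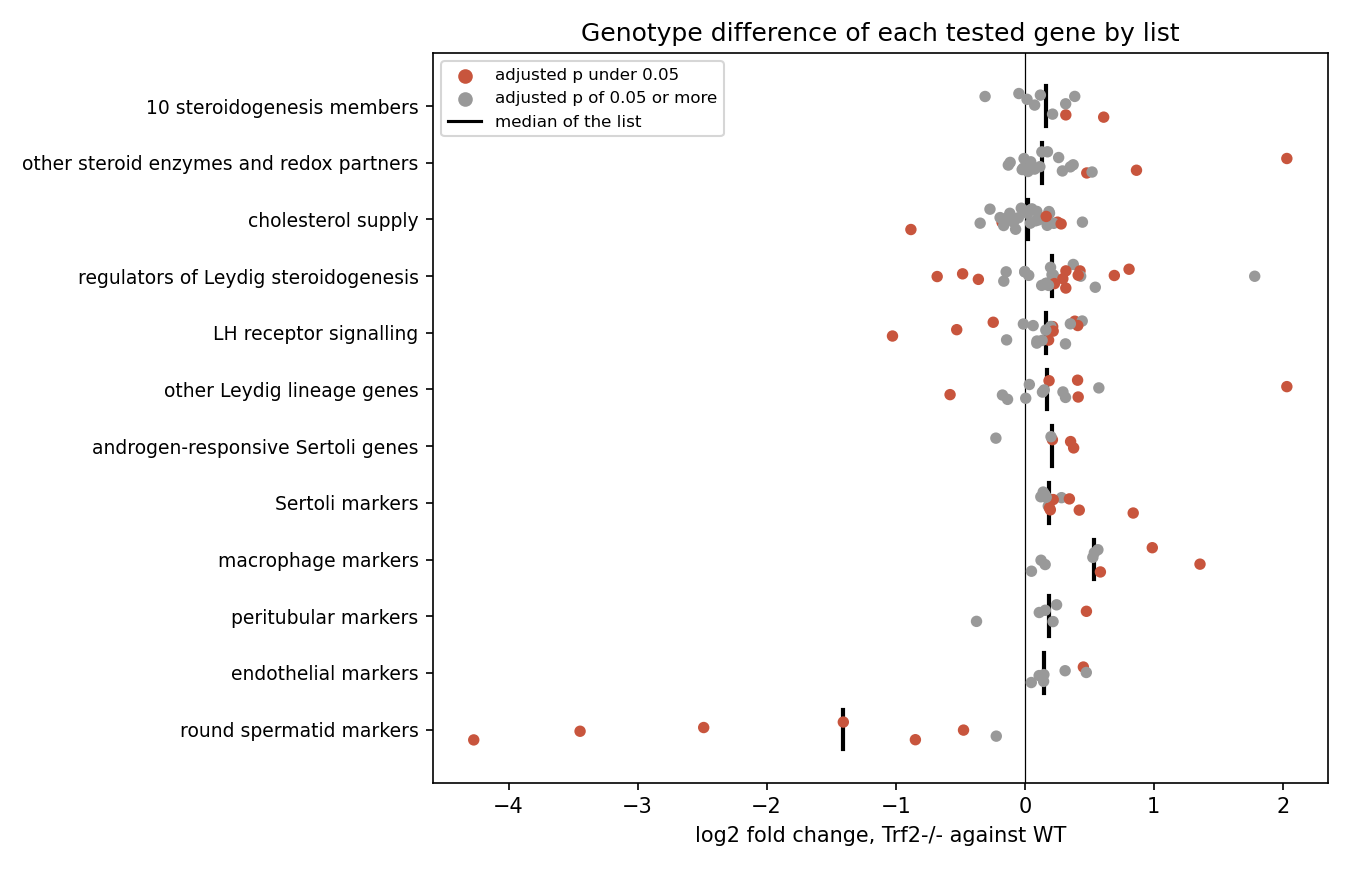
Log2 fold change (Trf2-/- against WT) of every tested gene of 12 lists, red where the adjusted p was under 0.05, with the list median as a black line. The medians of the steroidogenic and somatic lists lie between 0.02 and 0.21, except that of macrophage markers at 0.54, whereas round spermatid markers lie below 0 with a median of -1.41.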

How the data were processed

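RNA from whole testes of 3 WT and 3 Trf2-/- mice was made into ribosome-depleted stranded libraries and read as 50-base single ends. The deposited values are raw read counts per gene; the submitters' processing notes name CASAVA 1.8.2, TopHat2 2.0.10, Bowtie2 2.1.0, HTSeq 0.5.4p3 and DESeq2 1.0.19, and the build was mm9 (NCBIM37). The annotation release and strand setting for counting are not given in the sources used here. HTSeq by design leaves out ambiguous reads, which lowers the counts of overlapping genes and near-identical paralogues. The authors' normalised values, fold changes and p-values were not used.

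Genes were filtered by filterByExpr, scaled by TMM and tested with edgeR 4.0.16 (R 4.3.3; quasi-likelihood, two-sided, Benjamini-Hochberg over 16924 genes; genotype as the only term). Tested genes held 99.9% of counts, and the code was tested on simulated data. SE is the size of the log2 fold change over the root of F. With 3 mice against 3, an exact permutation test cannot go below 0.10, so none was run. Replicates differed by more than sampling noise (chi-square over degrees of freedom 3.32 to 10.3). Replicate numbers did not pair the mice (correlations of deviations -0.10, -0.03 and -0.10). Alternatives were DESeq2 1.42.0, other scalings, filters and thresholds, a replicate block and leaving out each mouse. The members and gene lists were chosen with earlier results of these data known. Genes named were the 10 members, Tbpl1, from each list at most the 3 called genes of lowest adjusted p and the gene of highest mean CPM over the 6 mice, and the 5 genes most like the members; Nr5a1 was named for its role; others are said to have been picked by their values, complete a short count or share reads or a function with a member. The listed Hsd3b4, Hsd3b5, Cyp11b1, Akr1c18, Akr1c6, Hmgcs1 and Rhox5 were not analysed here. The values of 1 gene counted among the cholesterol supply genes are not reported here.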

Additional observations from a re-analysis of the deposited data

How the results depend on the processing

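The members called higher numbered 2, and 0 to 2 when each mouse was left out (0 without WT mouse 1 or WT mouse 3, 1 without Trf2-/- mouse 1), 0 at an adjusted p under 0.01, 0 at a 2-fold threshold and 0 with Sertoli marker scaling, an alternative added after seeing the data; none was called lower in any setting run. With the replicate number as a block 1 member was called higher, Hsd17b3 being at 0.61 (adjusted p = 0.05), but the mice share only a number. DESeq2, its size factors, library size alone and both count filters gave counts within 1.5 times. Members without overlap numbered 3, and became 2 with DESeq2 size factors and 5 with library size alone. Leaving out a mouse moved the log2 fold change between -0.33 and 1.44 for Star, -0.27 and 0.21 for Cyp11a1, -0.67 and 0.32 for Cyp17a1, -0.068 and 0.23 for Hsd3b6, and -0.14 and 0.14 for Srd5a1 (including -0.0019 for Hsd3b6 and -6.0e-05 for Srd5a1 without WT mouse 3, and -0.075 for Srd5a1 without WT mouse 2), and between 0.23 and 0.37 for Hsd3b1 and 0.50 and 0.72 for Hsd17b3. Cyp11a1 was at 0.14 without Trf2-/- mouse 3 and at 0.049 with library size alone. Under Sertoli marker scaling Hsd3b6 was at -0.13, Srd5a1 at -0.19 and Scarb1 at -0.089; that scaling moved the median of all genes to -0.17, and library size alone moved it to 0.13.

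The 5 pathway lists together had 22 genes called higher and 8 lower. These became 38 and 5 with library size alone, 3 and 21 with Sertoli marker scaling, 7 and 5 at an adjusted p under 0.01, and 1 and 1 at 2-fold; leaving out a mouse gave 8 (without WT mouse 2) to 24 higher and 5 (without WT mouse 3) to 8 lower. The cause of these shifts was not tested. Insl3 had the fewest reads of the 10 members, at 70 to 129 per mouse. How far depth and the number of mice each set the width of the intervals was not tested.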
